A study of Mus musculus with 8 samples.

Results

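The comparison set the pancreas of BDC2.5/NOD.scid mice, whose T cells can carry only one transgenic receptor, against that of NOD mice, which have a natural repertoire of T and B cells. It used the 4 arrays labelled with these groups, 2 of each, out of 8 in the series, and all 8251 genes measured, each by whichever of its probe sets was brightest on average across the 8 arrays. NOD is an inbred strain that develops autoimmune diabetes. BDC2.5/NOD.scid mice carry the rearranged T cell receptor genes of BDC2.5, a diabetogenic CD4 clone specific for an antigen of islet cells, together with the scid mutation of Prkdc, a kinase needed to join the gene segments of antigen receptors. NOD.scid carries that mutation alone and BDC2.5/NOD the receptor genes alone. These groups, again of 2 arrays each, share one estimate of the spread with the pair compared, and the steps through them are given beside it. All groups have the NOD background and all mice were 3 weeks old. RNA came from whole pancreas, isolated 2 times from 6 animals each and pooled, with about 10 ug of total RNA used for labelling. No source used here names the promoter that drives the receptor genes. The labels do not say whether the 2 arrays of a group hold separate pools, so p-values measure only how these arrays vary, and that variation may be technical.

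As background, CD4 T cells see peptides held by class II molecules of the major histocompatibility complex (MHC), which macrophages, dendritic cells and B cells display. An activated T cell of the inflammatory kind secretes interferon gamma. Through the kinases of its receptor this cytokine acts on genes that carry a palindromic site called GAS and induces the factor IRF1, and the genes of antigen presentation are among those it raises. Acinar cells, which make the digestive enzymes and form most of the pancreas, answer injury and cytokines of the interleukin 6 family by secreting Reg proteins, small C-type lectins. In the NOD strain T cells enter the islets, where beta cells make insulin, alpha cells glucagon and delta cells somatostatin.

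Before the results, the arrays were checked. The deposited log2 values of the NOD pair correlated at 0.9927 across probe sets and those of the BDC2.5/NOD.scid pair at 0.9921, and arrays of the different groups correlated at 0.9773 to 0.9819. The probe set for the middle of beta-actin was high on NOD replicate 1 (9.35) and on BDC2.5/NOD.scid replicate 2 (9.26), but low on NOD replicate 2 (7.59) and BDC2.5/NOD.scid replicate 1 (7.46), so each class holds 1 array of either group and the difference can be read within each class. The ratio of the 3′ to the 5′ probe set of Gapdh, which rises as RNA breaks down, was 2.43 on NOD replicate 1 and 1.66 to 1.86 on the other 7 arrays, and its part in the results was not tested. Counts without that array are given where they move. Xist, the RNA that coats an inactive X chromosome, was at 7.26 and 4.60 in NOD against 4.19 and 5.92 in BDC2.5/NOD.scid, so the arrays of one group differed in it more than the groups did. Prkdc was at 3.49 and 3.70 in NOD against 3.40 and 3.49 in BDC2.5/NOD.scid, and since scid is a point mutation, this level checks no label. H2-Ea, a class II gene that NOD mice do not express, read 3.31 and 3.48 against 3.43 and 3.44. The acinar enzyme genes, led by Ctrb1 (chymotrypsinogen) at a mean of 13.70 in NOD against 13.75 in BDC2.5/NOD.scid, were the brightest of the tissue markers, as the label pancreas asks.

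In BDC2.5/NOD.scid, 213 of 8251 genes were higher than in NOD (2.58%) and 511 were lower (6.19%), at an adjusted p under 0.05 in limma's moderated test. Of all 12422 probe sets, 941 passed in either direction (7.58%). These shares are the background for each count of a list given below. The genes that rose did so by larger steps. With a change of at least 2-fold asked for as well, 44 genes were higher and 16 lower. Median change over all genes was 0.01 on the log2 scale. Without BDC2.5/NOD.scid replicate 2 the genes lower fell to 145, without NOD replicate 2 to 185, without NOD replicate 1 to 246 and without either BDC2.5/NOD array to 296 or 297. The genes higher fell to 108 without NOD replicate 1 and to 140 without NOD replicate 2. Leaving out any array of BDC2.5/NOD or BDC2.5/NOD.scid lowered the number of genes higher by about as much as leaving out NOD replicate 2. The 15 genes of largest increase and the 15 of largest decrease passed under every alternative run for them that kept 2 arrays in each group fitted. They were named only if the arrays of NOD and BDC2.5/NOD.scid did not overlap. Their direction within each actin class, or with 1 array left out, was therefore fixed by that rule and is no further check.

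**Figure D1:**
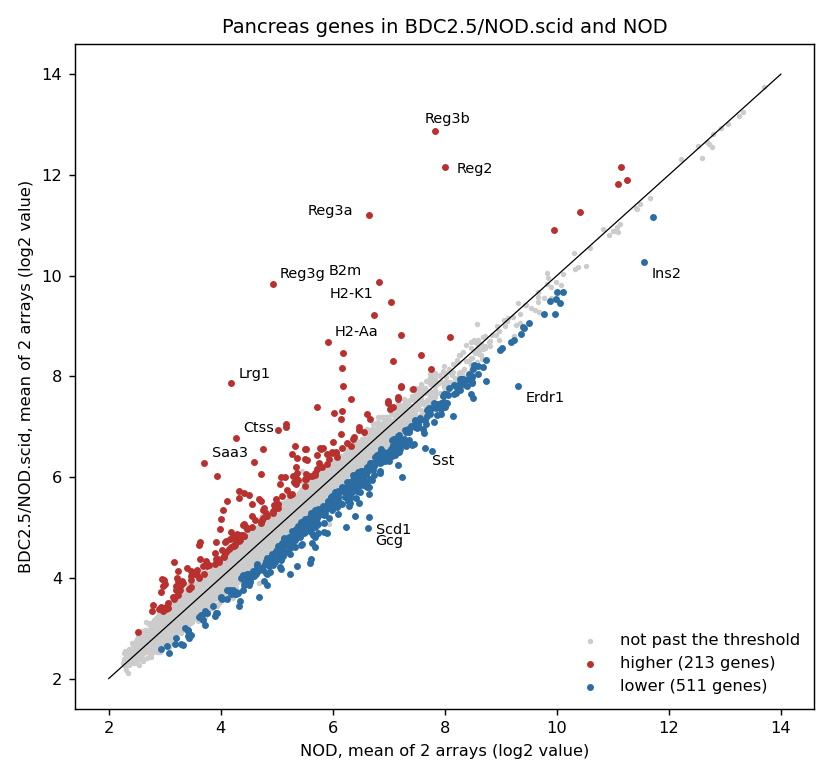
Mean log2 value of each of the 8251 genes in NOD (horizontal axis) and BDC2.5/NOD.scid (vertical axis), 2 arrays each, with the diagonal marking equal values. The 213 genes that were higher and the 511 that were lower are coloured, and the 4 genes Reg3b, Reg3g, Reg3a and Reg2 lie farthest from the diagonal, with Lrg1, B2m and H2-Aa next.

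To show what lies before the genes that moved most, the 160 bases before the start of 7 of them are printed from RefSeq on GRCm38.p6 (the first start listed for each), on the strand of the gene and 5′ to 3′. They stand for class I (B2m, H2-K1) and class II (H2-Aa) presentation, an interferon gamma target (Igtp), acinar lectins (Reg3b, Reg3g) and an islet hormone (Sst), and were chosen with their values known. Igtp lies outside the rule for named genes. Capitals mark matches, on either strand, to the GAS site TTCNNNGAA, a core of the IRF site AANNGAAA, a part of the NF-kB site GGNNTTTCC or the CRE site TGACGTCA.
B2m promoter, chr2:122147527-122147686, strand +: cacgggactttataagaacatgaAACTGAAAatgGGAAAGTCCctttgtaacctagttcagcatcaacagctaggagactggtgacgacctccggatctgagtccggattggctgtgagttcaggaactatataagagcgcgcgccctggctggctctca
H2-K1 promoter, chr17:34000348-34000507, strand -: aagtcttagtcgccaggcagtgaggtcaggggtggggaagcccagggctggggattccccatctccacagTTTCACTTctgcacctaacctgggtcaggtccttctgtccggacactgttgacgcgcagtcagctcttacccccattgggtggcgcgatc
H2-Aa promoter, chr17:34287824-34287983, strand -: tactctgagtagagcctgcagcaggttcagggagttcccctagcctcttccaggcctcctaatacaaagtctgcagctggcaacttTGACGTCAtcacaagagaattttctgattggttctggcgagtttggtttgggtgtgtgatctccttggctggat
Igtp promoter, chr11:58199396-58199555, strand +: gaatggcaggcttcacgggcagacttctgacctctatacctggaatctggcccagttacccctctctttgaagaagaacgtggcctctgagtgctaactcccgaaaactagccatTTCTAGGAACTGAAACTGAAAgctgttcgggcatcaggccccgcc
Reg3b promoter, chr6:78370725-78370884, strand +: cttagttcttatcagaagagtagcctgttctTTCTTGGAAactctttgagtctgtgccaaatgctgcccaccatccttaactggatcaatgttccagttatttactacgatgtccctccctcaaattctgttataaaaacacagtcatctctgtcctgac
Reg3g promoter, chr6:78468875-78469034, strand -: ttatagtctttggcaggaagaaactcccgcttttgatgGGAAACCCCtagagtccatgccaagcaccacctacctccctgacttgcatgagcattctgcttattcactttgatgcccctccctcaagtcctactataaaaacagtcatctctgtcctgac
Sst promoter, chr16:23890845-23891004, strand -: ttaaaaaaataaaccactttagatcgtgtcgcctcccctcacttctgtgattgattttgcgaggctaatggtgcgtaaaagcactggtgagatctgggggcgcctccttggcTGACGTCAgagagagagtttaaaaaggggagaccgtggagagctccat

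In B2m an IRF core began 137 bases and an NF-kB match 126 bases before the start. Igtp held a GAS match beginning 45 bases before the start, which overlapped the first of a pair of IRF cores at 38 and 32 bases. H2-K1 had an IRF core 90 bases before this start, and H2-Aa a CRE match at 74 bases. Of the lectins, Reg3b had a GAS match 129 bases and Reg3g an NF-kB match 122 bases before the start, and Sst had its CRE match at 48 bases. Farther out than the printed windows, IRF cores began 213 bases before H2-Aa and 176 and 170 bases before Sst. Over the 250 bases before any listed start, 28.6% of the 168 higher genes with a promoter in the table held an IRF core, 14.3% an NF-kB match and 11.3% a GAS match. For the 410 lower genes these shares were 17.1%, 4.88% and 5.85%. Among all 6576 measured genes with a promoter they were 20%, 6.43% and 7.39%, and they were 23.9%, 5.62% and 8.13% among all 27025 genes with a promoter listed. CRE matches lay before 2.98% of the higher, 1.95% of the lower and 2.69% of the measured genes, and 1.77% of all. The stress site TGACGTGG lay before 1.19%, 1.95% and 0.973%, and 0.603% of all. These shares are a description and were not tested.

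The lymphocyte markers themselves showed little. Of 19 T cell genes none passed, with changes from -0.08 to 0.30 and a median of 0.11, and the number at an unadjusted p under 0.05 was 5, all above 0. Cd4, the coreceptor of class II recognition, read 6.07 and 6.14 in NOD against 6.46 and 6.28 in BDC2.5/NOD.scid, a difference of 0.26 (SE 0.0942, adjusted p = 0.124). Cd3e, a chain of the receptor complex, read 5.70 and 5.63 against 5.89 and 5.84 (0.20, adjusted p = 0.292). The BDC2.5/NOD.scid arrays were the higher ones for both genes, but neither difference passed. Cd3g, another chain of that complex, was at 3.51 and 3.38 against 3.54 and 3.38, with no difference seen. In whole tissue, fewer cells of a type and less RNA per cell cannot be told apart. The summed linear level of the T cell list was 661 and 660 in NOD against 723 and 722 in BDC2.5/NOD.scid. It was 674 and 705 in NOD.scid, no lower than in NOD although scid is there without the receptor genes. The level of this list therefore cannot show how many T cells a pancreas held.

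Of the other T cell genes, the signalling genes Zap70, Lat and Cd247 differed by 0.09, 0.07 and 0.13, the lineage genes Lef1, Gata3 and Thy1 by 0.24, -0.08 and -0.05, and Cd8a and Cd8b1, the coreceptor of killer T cells, by 0.07 and 0.22. The largest difference was 0.30 for Il7r, the receptor of a survival cytokine, at 2.73 and 2.77 against 3.19 and 2.90. In the T cell activation and effector list 1 of 29 genes rose, Ccl5, a chemokine of activated T cells, from 4.07 and 4.28 to 4.76 and 4.79 (0.60, SE 0.104, adjusted p = 0.00406). Ifng, which encodes interferon gamma, stayed among the dimmest values of the array, at 2.16 and 2.45 against 2.38 and 2.26. Gzmb, a protease of cytotoxic granules, read 3.44 and 3.39 against 3.90 and 3.70 and missed the threshold (0.38, adjusted p = 0.0528). The table holds no detection calls, so whether such dim probe sets were above background is not known.

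Of 13 probe sets annotated to T cell receptor segments, 3 rose and 10 did not pass (median 0.14). A probe set of Trav9d-3 read 3.73 and 3.65 in NOD against 4.50 and 4.54 in BDC2.5/NOD.scid, 1.79-fold higher (adjusted p = 0.000221), against 3.68 and 3.70 in NOD.scid, with 3.56 and 3.67 in BDC2.5/NOD. The brightest of this gene read 6.91 and 7.06 against 7.57 and 7.47 (0.53, adjusted p = 0.0054), and another, at 4.18 and 4.26 against 4.45 and 4.40, did not pass. Of the probe sets of Trbv1, one read 5.29 and 5.39 against 6.13 and 5.84 (0.64, adjusted p = 0.00476) and one 4.71 and 4.61 against 4.61 and 4.63. So the receptor probe sets that rose did so on the BDC2.5/NOD.scid arrays and not on those of BDC2.5/NOD, although both groups are labelled as carrying the receptor genes. A probe set of one segment can share sequence with others, so which segment was read is uncertain.

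Few B cell and immunoglobulin genes passed. Among 21 B cell genes 1 passed, Ly86, from 4.24 and 4.42 to 4.83 and 4.66 (0.41, adjusted p = 0.0452), a gene that macrophages express too. It did not pass when any array other than those of NOD.scid was left out. Cd79a, the signalling chain of the B cell receptor, read 5.40 and 5.48 against 5.21 and 5.37 (-0.15, adjusted p = 0.456), and Ms4a1 (CD20) 5.69 and 5.72 against 5.70 and 5.62. None of 11 plasma cell genes passed at the adjusted threshold, and 1 had an unadjusted p under 0.05. Ighm, the heavy chain of IgM, was at 5.57 and 5.89 against 5.60 and 5.47 on its brightest of 16 probe sets (-0.19, adjusted p = 0.48), and on the others between -0.10 and 0.33. Of 79 immunoglobulin probe sets 2 fell and none rose, where 7.58% of all probe sets passed in either direction. Both of the 2 read kappa light chain, while the other kappa probe sets did not pass.

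A kappa probe set annotated to Igkv6-23, other variable segments and the constant gene Igkc read 7.36 and 7.34 in NOD against 6.24 and 6.47 in BDC2.5/NOD.scid, a difference of -1.0 (SE 0.101, adjusted p = 6.5e-05). NOD.scid was lower still, at 5.25 and 5.41, and BDC2.5/NOD lay at 5.62 and 5.66. The order of the groups was therefore NOD, BDC2.5/NOD.scid, BDC2.5/NOD and NOD.scid, and BDC2.5/NOD.scid was 1.02 above NOD.scid (adjusted p = 4.67e-05), with which it shares the scid mutation that blocks B cell development. The probe set of Igkv6-23 gave the same order, with 6.03 and 5.76 in NOD, against 4.82 and 4.96 in BDC2.5/NOD.scid, 4.13 and 4.22 in BDC2.5/NOD and 3.81 and 3.57 in NOD.scid. The 4 other probe sets annotated to Igkc differed by -0.24, 0.02, 0.03 and 0.19 and did not pass, so a lower level was not seen across kappa. For the B cell list the summed linear level was 665 and 695 in NOD against 694 and 685 in BDC2.5/NOD.scid. It was 687 and 721 in NOD.scid, no lower than in NOD despite the scid mutation. The level of this list therefore cannot show how many B cells a pancreas held.

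Genes of antigen presentation by class II rose strongly. H2-Aa, the alpha chain of the class II molecule of this strain, read 5.75 and 6.06 in NOD against 8.82 and 8.56 in BDC2.5/NOD.scid, 6.87-fold higher (2.78, SE 0.121, adjusted p = 2.43e-08). Its partner chain H2-Ab1 read 4.99 and 5.07 against 6.94 and 6.95, 3.76-fold higher. Cd74, the invariant chain that guides class II molecules to the compartment where they are loaded, read 6.37 and 6.01 against 8.0 and 8.95 (2.28, SE 0.233), with the widest gap within a pair among these genes. These genes are all among those of largest increase, which were chosen only where the groups did not overlap. Their lack of overlap is therefore no further check.

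In all, 5 of 11 class II genes rose and none fell, against 2.58% and 6.19% of all genes, and the list median was 0.38. The others were H2-Eb1, a beta chain, from 6.13 and 6.21 to 8.11 and 8.22 (1.99), and H2-DMb1, a chain of the peptide editor, from 5.66 and 5.93 to 6.49 and 6.61 (0.75). The steps through the single changes were small. H2-Aa differed by -0.18 between NOD.scid and NOD and by 0.05 between BDC2.5/NOD and NOD, and neither step passed (adjusted p = 0.538 and 0.85), while BDC2.5/NOD.scid was 2.73 above BDC2.5/NOD (adjusted p = 5.63e-08). The interaction, the difference with the transgene in NOD.scid minus that in NOD, was 2.91 for H2-Aa and passed for 5.38% of all genes.

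Class I presentation rose along with it. B2m, the light chain of all class I molecules, read 6.71 and 6.92 in NOD against 9.97 and 9.77 in BDC2.5/NOD.scid, 8.31-fold higher (3.06, SE 0.0996, adjusted p = 1.23e-09). H2-K1 and H2-D1 are the heavy chains that present peptides to killer T cells. H2-K1 read 6.98 and 7.10 against 9.57 and 9.39 (2.44), and H2-D1 read 6.61 and 6.86 against 9.27 and 9.17 (2.48). Other probe sets of H2-D1 gave 1.77 and 2.38, and of H2-K1 1.77 and, for a dim one, 0.10, which did not pass (adjusted p = 0.566). Heavy chain genes are alike in sequence, so their probe sets may read each other's transcripts, and those annotated to several genes of the H2-Q, H2-T and H2-K groups were higher as well, up to 1.94. Unlike class II, these heavy chains had moved already in BDC2.5/NOD, by 0.66 for H2-K1 and 0.62 for H2-D1 above NOD (adjusted p = 0.0011 and 0.00343), whereas B2m had not passed (0.22, adjusted p = 0.2).

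Of 17 genes of class I and peptide loading 7 rose and none fell, with a median of 0.33. Psmb9 and Psmb8, subunits that interferon exchanges into the proteasome, rose from 4.20 and 4.44 to 5.53 and 5.65 (1.27) and from 4.02 and 4.23 to 5.30 and 5.75 (1.40). Tapbp, which tethers class I molecules to the peptide transporter, rose by 0.55, and its level was alike in the transgenic groups, at 6.38 and 6.4 in BDC2.5/NOD and 6.45 and 6.44 in BDC2.5/NOD.scid.

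**Figure D2:**
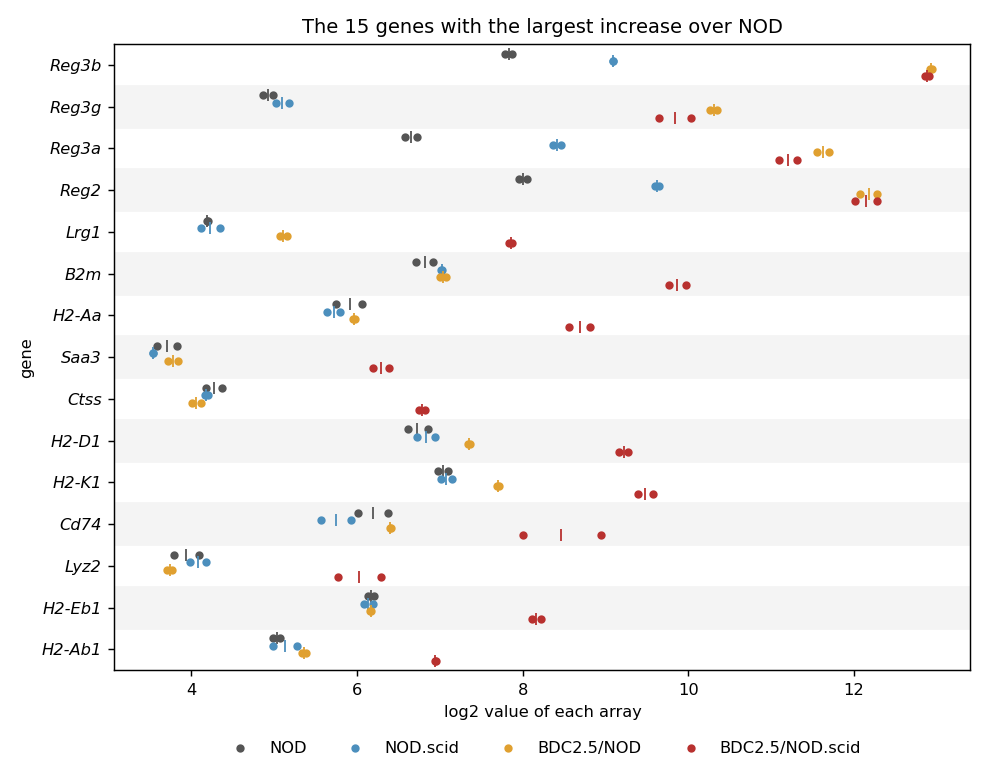
Log2 value on each of the 8 arrays, with a tick at the group mean, of the 15 genes with the largest increase in BDC2.5/NOD.scid over NOD. Reg3b, Reg3g, Reg3a and Reg2 were high in both transgenic groups, and the other 11 were highest on the BDC2.5/NOD.scid arrays, such as B2m at 9.97 and 9.77 against 6.71 to 7.08 elsewhere.

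Of 30 genes of the interferon gamma response 15 rose and none fell, with a median of 0.38 (0.44 within the arrays of high actin control and 0.34 within those of low). The count was 9 without BDC2.5/NOD.scid replicate 2 and 10 without NOD replicate 1, and 11 to 15 without any other array. Iigp1, a guanosine triphosphatase that attacks the vacuoles of parasites, read 4.35 and 4.31 against 5.42 and 6.02 (1.39), and Irgm1, of the same family, 2.95 and 2.93 against 3.71 and 3.73 (0.78). Igtp read 3.52 and 3.42 against 4.13 and 4.15 (0.67), and the probe set shared by Tgtp1 and Tgtp2, which were named after their values were seen, 3.08 and 3.28 against 4.94 and 4.79 (1.68). None of these passed between NOD and the groups with a single change, where Iigp1 read 4.22 and 4.07 in NOD.scid, with 4.65 and 4.51 in BDC2.5/NOD. A dim probe set of Iigp1 did not pass between BDC2.5/NOD.scid and NOD (0.10). Irf1, a factor induced by interferon gamma, rose less, from 5.21 and 5.25 to 5.74 and 5.54 (0.41, adjusted p = 0.0467). Of the genes of this list, Psmb8 and Psmb9 are also in the class I list. The type I interferon list had 2 of 20 genes higher, Ifi27 by 0.59 and Ifi27l2a by 0.60, and 1 without NOD replicate 1. Ifi27 was also above NOD both in BDC2.5/NOD (0.76) and in NOD.scid (0.82).

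Macrophage genes had the largest share higher of the lists described, 16 of 30 (53.3%) with a median of 0.41, and 12 to 16 passed when single arrays were left out. Ctss, cathepsin S, the protease that trims the invariant chain, read 4.18 and 4.37 in NOD against 6.75 and 6.82 in BDC2.5/NOD.scid, 5.69-fold higher (2.51, SE 0.101). Lyz2, lysozyme of macrophages, read 3.79 and 4.09 against 6.29 and 5.77 (2.09), with the probe set shared by Lyz1 and Lyz2 at 2.21 and a dim probe set of Lyz2 at 0.32, which did not pass. Cd14, the receptor subunit for bacterial lipopolysaccharide, read 6.31 and 6.35 against 7.66 and 7.47 (1.24). C1qc and C1qa, subunits of the first complement component that tissue macrophages secrete, rose by 1.15 and 1.03. The surface markers of the lineage changed less, Adgre1 from 4.20 and 4.58 to 4.88 and 4.84 (0.47) and Csf1r from 4.42 and 4.67 to 4.99 and 5.0 (0.45).

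The summed linear level of the macrophage list was 1017 and 1067 in NOD, 1076 and 1087 in NOD.scid, against 1030 and 1049 in BDC2.5/NOD and 1730 and 1612 in BDC2.5/NOD.scid. No marker of this list can be called absent, as the values have no zero. Ctss, Cd74 and the class II genes are expressed by macrophages, and the part that macrophage number plays in their change was not tested. Few other myeloid and lymph node markers passed. Of 16 dendritic cell genes 1 rose, Cd86, a costimulator shared with macrophages (0.47, and -0.05 on a dim probe set), and it did not pass without any one of the NOD or BDC2.5/NOD.scid arrays. At an unadjusted p under 0.05, 6 of these genes were above 0 and none below, with a list median of 0.17. None of 20 neutrophil genes passed at the adjusted threshold, with 5 of them at an unadjusted p under 0.05 and above 0. S100a8, which was bright in NOD.scid at 6.70 and 6.94, read 4.55 and 4.89 in NOD against 4.80 and 4.07 in BDC2.5/NOD.scid. None of 10 lymph node and spleen genes passed, the unadjusted count being 1 higher and 1 lower, and their summed linear level was 167 and 178 in NOD against 185 and 186 in BDC2.5/NOD.scid. Of 13 natural killer cell genes Tyrobp alone rose (0.59), an adaptor that macrophages use too.

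Among 43 chemokine, cytokine and adhesion genes 6 rose, all of them chemokines, and none fell. Ccl9 and Ccl8, attractants of monocytes and other leukocytes, rose from 4.37 and 4.47 to 5.71 and 5.67 (1.27) and from 4.71 and 4.74 to 6.15 and 5.98 (1.34). Cxcl9, which interferon gamma induces and which draws activated T cells, rose from 3.15 and 2.79 to 3.63 and 4.03 (0.86, adjusted p = 0.00364). Without NOD replicate 2 the count was 4. Between BDC2.5/NOD and NOD these 3 differed by 0.32 for Ccl9, 0.25 for Ccl8 and -0.06 for Cxcl9, none past the threshold. The NF-kB and apoptosis list had 4 of 30 genes higher, led by Nfkbia, an inhibitor that NF-kB itself induces, from 5.71 and 5.83 to 6.81 and 6.33 (0.80). That count was 1 without NOD replicate 1 and 2 without NOD replicate 2, BDC2.5/NOD.scid replicate 2 or either BDC2.5/NOD array.

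The 4 largest increases of all were lectins of the Reg family, and unlike the genes of antigen presentation they were as high in BDC2.5/NOD. Reg3b read 7.79 and 7.87 in NOD against 12.91 and 12.86 in BDC2.5/NOD.scid, 33.3-fold higher (5.06, SE 0.0749, adjusted p = 7.7e-13). Reg3g, which kills Gram-positive bacteria in the gut, read 4.87 and 4.99 against 10.03 and 9.65, and was 30-fold higher (4.91). Reg3a rose from 6.72 and 6.58 to 11.31 and 11.10, or 23.5-fold (4.56), and Reg2 from 8.05 and 7.96 to 12.28 and 12.02, or 17.7-fold (4.14). With a second probe set the change was 5.38 for Reg3b, 3.41 for Reg3g and 3.80 for Reg3a, and a dim one of Reg2 did not pass (0.20).

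BDC2.5/NOD had reached the same levels, at 12.92 and 12.94 for Reg3b and 12.08 and 12.28 for Reg2, and BDC2.5/NOD.scid differed from it by -0.04 and -0.03, past no threshold (adjusted p = 0.812 and 0.919). For Reg3g and Reg3a it was lower by a small step, -0.47 and -0.42 (adjusted p = 0.0301 and 0.0178). In NOD.scid 3 of the 4 were above NOD, Reg3b at 9.09 and 9.09, Reg3a at 8.47 and 8.37 and Reg2 at 9.65 and 9.60. Reg3g, at 5.18 and 5.02, did not pass the threshold (0.17, adjusted p = 0.574). The difference with the transgene was therefore smaller in NOD.scid than in NOD for Reg3a (interaction -2.20), Reg2 (-1.65) and Reg3b (-1.31).

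The other members of this list of 19 did not follow. Reg1, the acinar member that is abundant in healthy pancreas, was at 12.65 and 12.73 in NOD against 12.74 and 12.57 in BDC2.5/NOD.scid (-0.04, adjusted p = 0.869), with a second probe set at 0.15. Nupr1, a stress protein of injured acinar cells, read 8.35 and 8.79 against 9.27 and 8.82 and did not pass (0.47, adjusted p = 0.116), and Lcn2 was at 4.40 and 4.64 against 4.71 and 4.47. Spink1 (-0.02), Clu (-0.16), Krt8 (-0.14), Krt18 (0.17), Krt19 (-0.35), Anxa2 (0.01), Anxa3 (0.04), Cd44 (0.08), Vim (0.14), Tff1 (0.18) and Tff3 (0.18) did not pass either. Tff2, a trefoil peptide that protects mucosa, fell from 11.71 and 11.72 to 11.20 and 11.13 (-0.55). The list's median of 0.08 thus hides 4 genes that stood far from the other 15.

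Acute-phase genes, which the liver makes in inflammation and some tissues make locally, rose in 7 of 28 cases and fell in 1. Lrg1, a leucine-rich glycoprotein induced by inflammatory cytokines, read 4.19 and 4.20 in NOD against 7.84 and 7.87 in BDC2.5/NOD.scid, 12.7-fold higher (3.66, SE 0.102, adjusted p = 2.39e-10). It had risen by 0.92 in BDC2.5/NOD, to 5.07 and 5.16. Saa3, a serum amyloid protein of macrophages and epithelia, read 3.58 and 3.83 against 6.39 and 6.19 (2.58) and was level in the other groups. Itih4, an inhibitor chain of plasma, was highest in BDC2.5/NOD, with 4.74 and 4.77 in NOD, against 6.63 and 6.48 in BDC2.5/NOD.scid and 7.87 and 7.77 in BDC2.5/NOD. Vtn, the adhesion protein vitronectin, fell from 8.61 and 8.41 to 7.57 and 7.58 (-0.94). None of 15 liver genes passed, with 1 higher and 1 lower at an unadjusted p under 0.05. The probe set shared by C4a and C4b, complement genes named here after their values were seen, read 4.72 and 5.03 in NOD, against 8.0 and 8.03 in BDC2.5/NOD and 8.07 and 8.14 in BDC2.5/NOD.scid (3.23), so it followed the lectins, and a dim one showed no such rise.

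Of 25 genes of STAT3 and interleukin 6 signalling 3 rose and 1 fell, with a median of 0.23. Cebpb, a factor that drives acute-phase genes, rose from 4.10 and 3.99 to 5.20 and 5.49 (1.30), Pim1, a kinase induced by STAT3, from 6.47 and 6.46 to 6.98 and 6.88 (0.47), and Socs3, its feedback inhibitor, from 4.42 and 4.82 to 5.15 and 5.15 (0.53, adjusted p = 0.0242). Another probe set of Pim1 did not pass (0.03), and another of Socs3 did (0.72). The number higher ranged from 2 to 5 when single arrays were left out, with 2 without NOD replicate 1 or BDC2.5/NOD.scid replicate 2 and 5 without either NOD.scid array. It was 6 under quantile normalization. The gene that fell, Il10rb, a chain of cytokine receptors (-0.33, adjusted p = 0.0468), did not pass without either BDC2.5/NOD array, either NOD array or BDC2.5/NOD.scid replicate 2. Immediate early and stress genes rose in 5 of 30 cases, with Zfp36, which destabilises cytokine messages, at 0.74, Dusp1, a phosphatase of stress kinases, at 0.86 and Btg2 at 0.57. Sgk1, a kinase induced by glucocorticoids, was the 1 that fell (-0.50), and it did not pass without either BDC2.5/NOD array, either NOD array or BDC2.5/NOD.scid replicate 2.

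Metallothioneins, small metal-binding proteins, rose. Mt2 read 9.93 and 9.97 in NOD against 11.00 and 10.82 in BDC2.5/NOD.scid (0.96), and Mt1 read 10.44 and 10.38 against 11.34 and 11.20 (0.86). Both genes were below NOD in each group with a single change. Mt1 was at 9.70 and 9.78 in NOD.scid and at 9.88 and 9.77 in BDC2.5/NOD (adjusted p = 0.00104 and 0.00122). Txnip, an inhibitor of thioredoxin induced by glucose, went from 7.04 and 7.11 to 8.24 and 8.37 (1.23), again against a fall in BDC2.5/NOD to 5.55 and 5.62, and a dim probe set of it did not pass (0.16). Pdk4, the kinase that turns mitochondria from glucose to fat, showed the same shape, with 5.16 and 5.17 in NOD, against 4.66 and 4.41 in BDC2.5/NOD and 7.11 and 7.01 in BDC2.5/NOD.scid (1.90). So these genes crossed NOD's level in opposite directions in the transgenic groups. Of 28 metallothionein and antioxidant genes 6 rose (21.4%) and 3 fell (10.7%), against 2.58% and 6.19% of all genes. The number higher was 3 without NOD replicate 2 or BDC2.5/NOD.scid replicate 2, and the number lower 1 without NOD replicate 1, BDC2.5/NOD.scid replicate 2 or either BDC2.5/NOD array, and 1 under quantile normalization. Of 23 genes of fatty acid oxidation and fuel switch 3 rose (13.0%) and 2 fell (8.70%). The share that fell was near the 6.19% of all genes, and that count depended on single arrays of NOD and BDC2.5/NOD.scid.

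**Figure D3:**
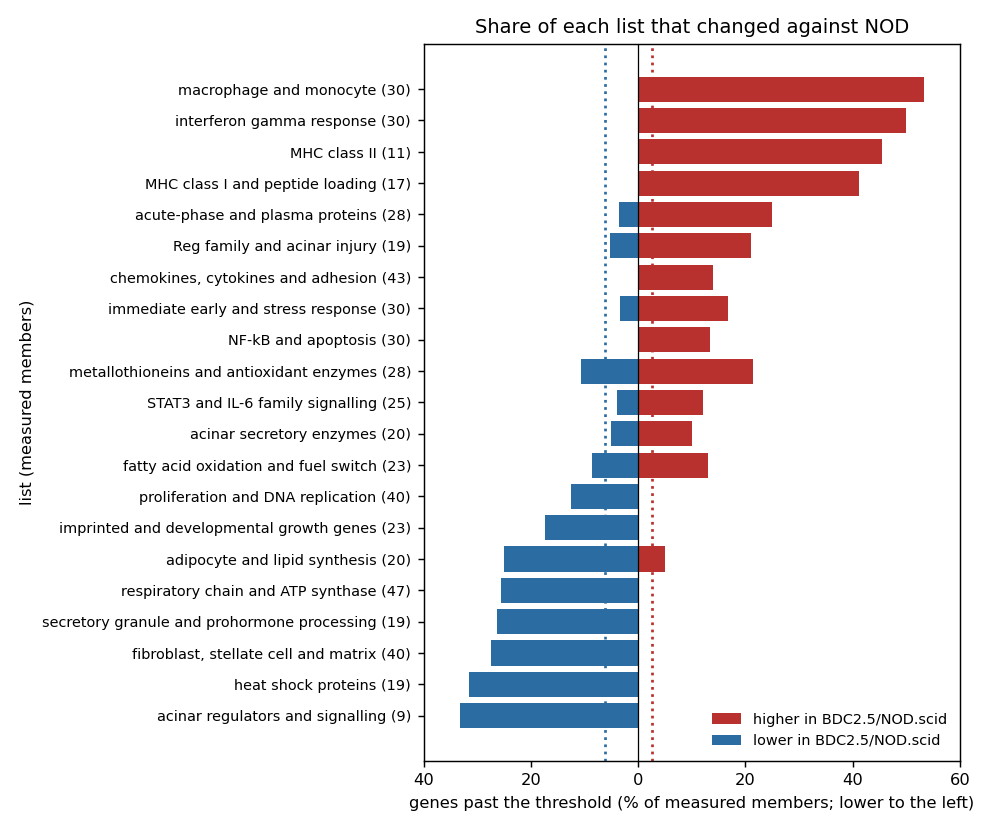
Share of each list's measured members (number in brackets) that were higher (right) or lower (left) in BDC2.5/NOD.scid than on the NOD arrays, for lists with at least 3 such genes, with dotted lines at 2.58% and 6.19%, the shares over all genes. Macrophage (53.3% higher) and interferon gamma genes (50%) head the chart, and acinar regulators (33.3% lower) and heat shock proteins (31.6%) close it.

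The hormones of all 3 main islet cell types fell. Ins2, one of the insulin genes of the mouse, read 11.59 and 11.53 in NOD against 10.35 and 10.20 in BDC2.5/NOD.scid, 2.44-fold lower (-1.28, SE 0.0865, adjusted p = 1.35e-06), and -0.81 on another probe set. Gcg, which encodes glucagon, showed the largest decrease of any named gene, from 6.51 and 6.75 to 5.15 and 4.82, 3.13-fold lower (-1.65, SE 0.138, adjusted p = 1.14e-05). Sst, somatostatin, fell from 7.62 and 7.68 to 6.52 and 6.63 (-1.08), and Iapp, the amyloid peptide secreted with insulin, from 5.25 and 5.24 to 4.29 and 3.84 (-1.17). All of them are among the genes of largest decrease, which were chosen only where the groups did not overlap. The lack of overlap is therefore no further check.

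BDC2.5/NOD lay close to BDC2.5/NOD.scid for Sst, at 6.59 and 6.62, and for Gcg, at 5.30 and 5.38, and the differences did not pass (-0.03 and -0.36, adjusted p = 0.9 and 0.153). Ins2, at 10.85 and 10.80 in BDC2.5/NOD, went a step further down in BDC2.5/NOD.scid (-0.55, adjusted p = 0.00181). Ins2 was not lower in NOD.scid than in NOD, at 11.64 and 11.81.

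Few of the other islet genes passed. Of 17 beta cell genes Ins2 and Iapp alone passed, and the median was -0.01. At an unadjusted p under 0.05, 4 were lower, these included, and none higher. Pdx1, the factor that sets beta cell identity, read 3.68 and 3.85 against 3.94 and 3.84, and Slc2a2, the glucose transporter, 3.24 and 3.04 against 2.98 and 2.87 (-0.22). Nkx2-2 (-0.01), Pax6 (0.20), Neurod1 (-0.01), Isl1 (0.02), G6pc2 (-0.33), Ero1b (-0.28), Abcc8 (0.08), Kcnj11 (0.13), Gad1 (0.14), Gad2 (-0.04), Ptprn (0.02), Ptprn2 (0.27) and Ica1 (-0.03) did not pass. Most of these read below 4 on every array, close to the dim end of the table. Of 9 genes for other islet hormones and their regulators only Gcg and Sst passed, while Ppy (-0.16), Ghrl (0.33), Gast (0.10), Cck (-0.07), Npy (0.19), Pax4 (0.15) and Hhex (-0.22) did not.

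Some granule genes fell. Of 19 genes of the secretory granule and prohormone processing 5 fell and none rose, with a median of -0.23, and the number was 3 without NOD replicate 2. Cpe, the carboxypeptidase that trims prohormones, fell from 7.73 and 7.83 to 6.50 and 6.51 (-1.27, and -1.32 on a second probe set). Scg2, secretogranin II, fell from 4.65 and 4.74 to 3.64 and 3.59 (-1.08). Pam, the enzyme that amidates peptides, fell by 0.68 and read 4.93 and 5.15 in BDC2.5/NOD, close to NOD's 5.02 and 5.12, so of the transgenic groups it was low in BDC2.5/NOD.scid alone, at 4.43 and 4.36. Rab3d, a small GTPase of acinar as well as endocrine granules, was at -0.47 and Scg5 at -0.44.

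**Figure D4:**
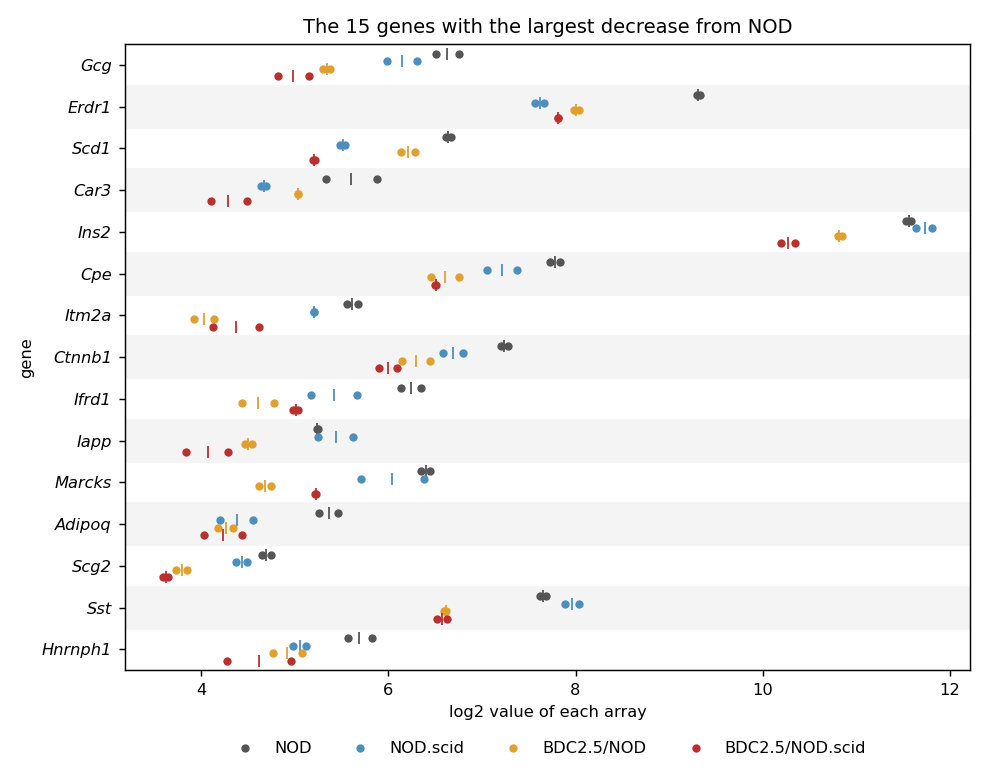
Log2 value on each of the 8 arrays, with a tick at the group mean, of the 15 genes with the largest decrease in BDC2.5/NOD.scid from NOD. NOD had the highest mean for every gene but Ins2, Iapp and Sst, whose mean was highest in NOD.scid. The hormones Ins2 and Sst were low only in the transgenic groups, Sst at 6.52 to 6.63 on those 4 arrays.

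The other genes with large decreases were of several kinds. Erdr1, a gene of the pseudoautosomal region of the sex chromosomes, read 9.30 and 9.33 in NOD against 7.81 on each BDC2.5/NOD.scid array (-1.5), and it was as low in NOD.scid, at 7.66 and 7.57, and in BDC2.5/NOD, at 7.98 and 8.04. A second probe set of it did not pass (-0.10). Ctnnb1, beta-catenin, fell from 7.28 and 7.20 to 6.09 and 5.90 (-1.24), Itm2a, a membrane protein, from 5.56 and 5.67 to 4.62 and 4.12 (-1.24), and Ifrd1, a transcriptional coregulator, from 6.13 and 6.35 to 5.03 and 4.98 (-1.23). Marcks, a substrate of protein kinase C, fell from 6.44 and 6.35 to 5.23 and 5.22 (-1.17), and Hnrnph1, a splicing factor, from 5.57 and 5.82 to 4.96 and 4.27 (-1.07). For Itm2a, Ifrd1 and Marcks, BDC2.5/NOD had the lowest mean of the groups.

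Genes of fat tissue and lipid synthesis were lower in 5 of 20 cases and higher in 1, a call lost without either NOD array or BDC2.5/NOD.scid replicate 2. Scd1, the desaturase of fatty acid synthesis, read 6.62 and 6.67 in NOD against 5.19 and 5.22 in BDC2.5/NOD.scid, 2.71-fold lower (-1.44, and -1.46 and 0.14 on other probe sets, the last not past the threshold). Car3, a carbonic anhydrase abundant in adipocytes, fell from 5.33 and 5.88 to 4.49 and 4.10 (-1.31), and Adipoq, the adipocyte hormone adiponectin, from 5.26 and 5.46 to 4.44 and 4.03 (-1.13). All 3 were already lower than NOD in NOD.scid, by 1.13, 0.94 and 0.98. BDC2.5/NOD.scid did not differ from NOD.scid past the threshold (-0.30, -0.37 and -0.14). In BDC2.5/NOD they differed from NOD by -0.43, -0.58 and -1.10 (adjusted p = 0.0127, 0.0524 and 0.000893), so Adipoq was low in every group but NOD. The summed linear level of the list was 1020 and 1029 in NOD against 878 and 895 in BDC2.5/NOD.scid. The amount of fat taken with the pancreas was not measured, and its part in these values was not tested.

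Matrix genes fell in 11 of 40 cases and rose in none, with a median of -0.14. The count was 5 without BDC2.5/NOD.scid replicate 2, 6 without NOD replicate 1 and 6 without NOD replicate 2. Col6a3, a chain of collagen VI, fell from 6.52 and 6.68 to 5.86 and 5.80 (-0.77), Col3a1, of collagen III, from 7.80 on each array to 7.19 and 7.02 (-0.70, with -0.97 and -0.27 on other probe sets, the last not past the threshold), Sparc, a matrix regulator, from 6.53 and 6.55 to 5.86 and 5.84 (-0.69) and Lum, lumican, from 5.57 and 5.78 to 4.92 and 4.72 (-0.86). For Col3a1 and Lum, BDC2.5/NOD was as low, at 7.18 and 7.03 and at 4.73 and 4.94. Among growth genes of the young tissue, Igf2 fell from 8.98 and 8.51 to 7.78 and 8.02 (-0.85), and the cell cycle inhibitor Cdkn1c by 0.75. Both were also below NOD in BDC2.5/NOD (-1.01 and -0.83). A dim probe set of Igf2 did not pass (-0.16). In all, 4 of 23 of these growth genes fell. That count was 1 without NOD replicate 1, or 2 with BDC2.5/NOD.scid replicate 2 left out or without either BDC2.5/NOD array.

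The digestive enzymes were mostly unmoved. Of 20 acinar secretory genes 2 rose and 1 fell, with a median of -0.04. Dmbt1, a scavenger protein of mucosal secretions, rose from 11.09 and 11.21 to 12.19 and 12.11 (1.0), as in BDC2.5/NOD at 12.24 and 12.35, and Pla2g1b, the pancreatic phospholipase, rose from 11.18 and 11.01 to 11.69 and 11.95 (0.72), short of 12.63 and 12.59 in BDC2.5/NOD. Tff2, which stands in this list too, was the 1 that fell, and the probe set shared by Prss1, Prss3 and other trypsinogens, named after its values were seen, fell from 11.39 and 11.52 to 10.80 and 10.61 (-0.75). Ctrb1 (0.05), Prss2 (0.05), Cela2a (0.01), Cel (-0.04) and Clps (-0.07) differed by little and did not pass. Of the acinar regulators, Cckar, the receptor for cholecystokinin, fell from 8.48 and 8.44 to 7.64 and 7.66 (-0.80), Nr5a2 by 0.48 and Rab3d by 0.47. A dim probe set of Nr5a2 did not pass (-0.06). In all, 3 of 9 acinar regulators fell. The number was 1 without NOD replicate 2, or 2 if BDC2.5/NOD.scid replicate 2 was left out, and the list's median of -0.30 was -0.44 within the arrays of high actin control and -0.13 within those of low.

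For genes of protein folding in the endoplasmic reticulum the share that was lower lay near that of all genes. The list of endoplasmic reticulum chaperones had a median of -0.03 in BDC2.5/NOD.scid against NOD and 0.39 in BDC2.5/NOD against NOD, and the median of BDC2.5/NOD.scid minus BDC2.5/NOD was -0.51. These medians were not tested. In BDC2.5/NOD.scid 2 of its 30 genes (6.67%) were lower than in NOD and none higher, against 6.19% and 2.58% of all genes. The 2 were Sec61b, a subunit of the translocation channel, lower by 0.57, and Atf4, a stress factor, lower by 0.31. One of these calls did not survive leaving out BDC2.5/NOD.scid replicate 2, either NOD array or either BDC2.5/NOD array, and 4 genes were lower without either NOD.scid array. Heat shock proteins fell in 6 of 19 cases, Hspe1, the mitochondrial co-chaperone, from 7.04 and 7.21 to 6.57 and 6.36 (-0.66) and Cct5, a subunit of the cytosolic chaperonin, from 7.42 and 7.50 to 6.99 on each array (-0.47), with a dim second probe set at -0.07. That count was 1 without BDC2.5/NOD.scid replicate 2 or NOD replicate 2, 2 without NOD replicate 1, and 3 without either BDC2.5/NOD array.

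Respiratory chain genes fell in 12 of 47 cases by small steps, with Atp5j at -0.56, Atp5e at -0.53, Uqcrb at -0.72 and Ndufb7 at -0.36, and a list median of -0.23. This count was 1 without BDC2.5/NOD.scid replicate 2, 2 without NOD replicate 2, 3 without NOD replicate 1 and 6 without either BDC2.5/NOD array. It was 5 under quantile normalization and 2 with only the 4 arrays compared, while the median within the actin classes was -0.24 and -0.23. Of 40 proliferation genes 5 fell, Stmn1, Pcna, H2az1, Cdc20 and Tubb5, by 0.32 to 0.69. A dim probe set of Stmn1 did not pass (0.14). Without BDC2.5/NOD.scid replicate 2 or NOD replicate 2 the count was 2, and it was 3 with BDC2.5/NOD.scid replicate 1 or either BDC2.5/NOD array left out. Ribosomal protein genes were lower in 1 of 31 cases (Rpl7, -0.46) and erythroid genes in 1 of 21 (Prdx2, -0.40), shares below the 6.19% of all genes. Dimmer probe sets gave 0.27 for Rpl7 and 0.00 and -0.01 for Prdx2, none past the threshold. Rpl7 did not pass without NOD replicate 2, and Prdx2 not without either BDC2.5/NOD array, either NOD array or BDC2.5/NOD.scid replicate 2.

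**Figure D5:**
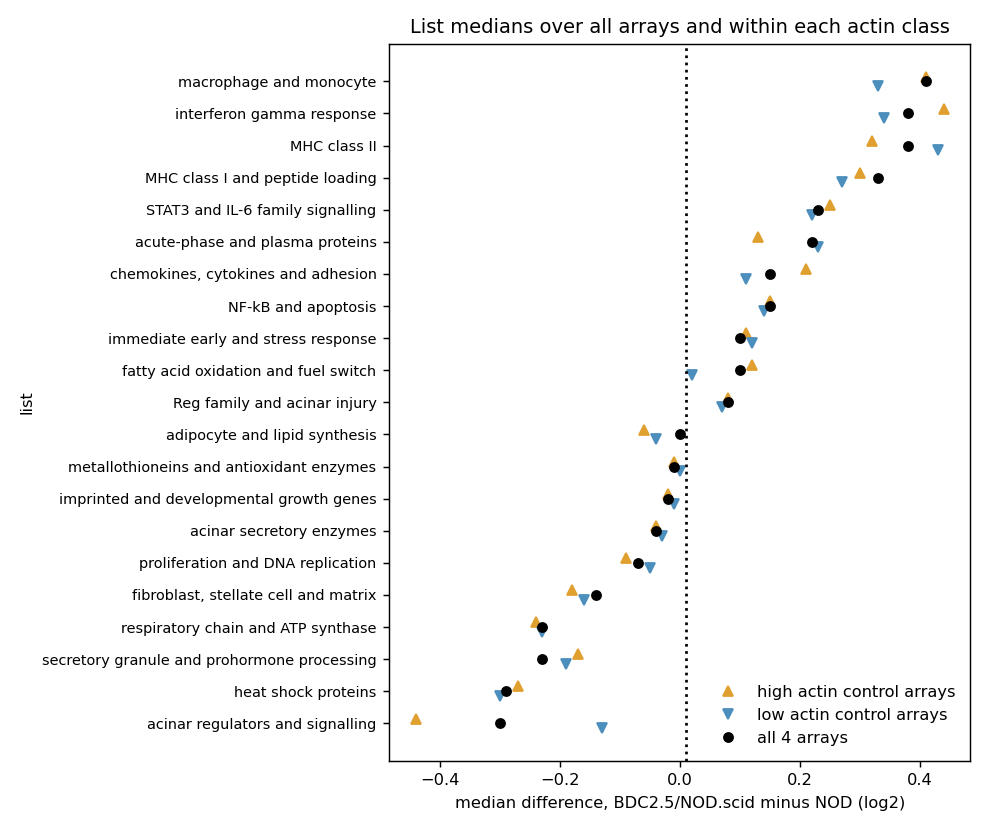
Median difference, BDC2.5/NOD.scid minus NOD on the log2 scale, of each list with at least 3 genes past the threshold, over all 4 arrays (circles) and within the arrays of high (upward triangles) and low actin control (downward triangles), with a dotted line at the median over all genes, 0.01. Macrophage, interferon gamma, class II and class I genes lay between 0.27 and 0.44 in every class, and heat shock and respiratory chain genes between -0.30 and -0.23.

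Set against the steps through the other groups, genes passed in either direction in 2.73% of cases for NOD.scid against NOD, 8.71% for BDC2.5/NOD against NOD, 6.97% for BDC2.5/NOD.scid against NOD.scid and 9.25% for BDC2.5/NOD.scid against BDC2.5/NOD. These comparisons share arrays with one another. Among the 30 genes of largest change 3 patterns recur when their own values are read side by side. The lectins, the islet hormones, Cpe and Scg2 were near the level of BDC2.5/NOD, with Ins2 a further step lower. Class II, class I, Ctss, Lyz2, Lrg1 and Saa3 were high on the BDC2.5/NOD.scid arrays and at or near NOD's level elsewhere, save for the smaller steps of H2-K1, H2-D1 and Lrg1 in BDC2.5/NOD. Scd1, Car3, Adipoq and Erdr1 were below NOD in NOD.scid too, and so by smaller steps were Cpe (-0.57, adjusted p = 0.0309), Ctnnb1 (-0.55, adjusted p = 0.0323) and Ifrd1 (-0.82, adjusted p = 0.0179).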

How the data were processed

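RNA from whole pancreas was read on 8 single-channel Affymetrix arrays. The deposited values are log2 values, a scale inferred from their range (highest 13.78), and no source used here names the authors' normalization. Array medians lay between 4.236 and 4.296, so no scaling was added. Of 12488 probe sets 66 were controls. Of the 12422 tested, 10833 carried 1 symbol, 396 several and 1193 none in the platform annotation. Group means of all 8 arrays were fitted with limma 3.58.1 in R 4.3.3 (variance trend, 4 residual degrees of freedom, two-sided moderated tests, Benjamini-Hochberg adjustment over 12422 probe sets, threshold 0.05), after a test on simulated data. Tables and figures were made in Python 3.11.15 with pandas 2.3.3 and matplotlib 3.10.9. Promoters came from a RefSeq table of 27025 genes. The number of arrays limits the precision.

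Named genes are the 15 of largest change per direction (passed, 1 symbol, arrays not overlapping, higher mean above 4.274), up to 4 passing members of smallest p per list, members of the lymphocyte, islet and Reg lists, and some fixed genes, not all of which are reported here. Other genes given as examples were chosen after their values were seen. The members and the 42 lists (929 of 1178 entries measured) were chosen with earlier results of these data known, and lists were not tested as sets. Alternatives covered normalization, filters, the arrays fitted, the variance prior, the actin control as a term, array weights, replicate blocks, thresholds, the probe set per gene and each array left out.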

Additional observations from a re-analysis of the deposited data

Results flagged for a closer look

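The 30 genes of largest change were chosen for a large difference between arrays that also enter the interaction. A share above that of all genes, 5.38%, therefore follows in part from the choice. Of the 30, 19 had an interaction past the threshold (limma, adjusted over all probe sets). In these 19 the difference with the receptor transgene was not the same in NOD.scid as in NOD. The interaction was above 0 in 15 of them and below 0 in 4.

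Among the genes that were higher in BDC2.5/NOD.scid, 14 of 15 were flagged. The lectins had smaller differences with the transgene in NOD.scid than in NOD. Their interaction was -2.20 for Reg3a (2.78 against 4.98, adjusted p = 1.27e-06), -1.65 for Reg2 (2.53 against 4.17) and -1.31 for Reg3b (3.79 against 5.10). For genes of class II presentation the difference with the transgene passed the threshold in NOD.scid and not in NOD. The interaction was 2.91 for H2-Aa (2.96 against 0.05, adjusted p = 8.91e-07) and 2.52 for Cd74 (2.73 against 0.21). For H2-Eb1 it was 2.04 (2.03 against -0.01) and for H2-Ab1 1.48 (1.81 against 0.33). For class I it was 2.62 for B2m (2.84 against 0.22, adjusted p = 4.05e-07), 1.77 for H2-D1 (2.38 against 0.62) and 1.74 for H2-K1 (2.40 against 0.66). The myeloid and acute-phase genes gave 2.82 for Ctss (2.61 against -0.21, adjusted p = 3.87e-07), 2.15 for Lyz2 (1.95 against -0.20), 2.71 for Lrg1 (3.63 against 0.92) and 2.68 for Saa3 (2.75 against 0.07).

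Among the genes that were lower, 5 of 15 were flagged. Ins2 had an interaction of -0.71, with a larger difference with the transgene in NOD.scid (-1.45) than in NOD (-0.73, adjusted p of the interaction = 0.00548). The others were above 0, at 1.5 for Erdr1 (0.19 in NOD.scid against -1.30 in NOD), 1.22 for Ifrd1 (-0.41 against -1.63), 0.95 for Adipoq (-0.14 against -1.10) and 0.90 for Marcks (-0.82 against -1.71, adjusted p = 0.0471).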

How the results depend on the processing

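The 30 genes of largest change passed the threshold under each alternative run for them that kept 2 arrays in every group fitted. Their direction is no separate check, since they were named only if the arrays of the 2 groups did not overlap. The counts, 311 probe sets (213 genes) higher and 630 (511) lower as reported, moved more. With only the 4 arrays compared, 196 probe sets (134 genes) were higher and 379 (292) lower, and without the BDC2.5/NOD arrays 205 probe sets were higher and 379 (294 genes) lower. With the actin control as a term, 568 probe sets (396 genes) were higher and 1139 (884) lower. At an adjusted p under 0.01 these were 162 (112) and 215 (162), and with at least 2-fold change 72 (44) and 24 (16). Leaving out single arrays gave 161 to 335 probe sets (108 to 226 genes) higher and 194 to 729 (145 to 582) lower. The causes were not tested.

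Replicate numbers did not pair the arrays: deviations of same-numbered arrays correlated at -0.32 between NOD and BDC2.5/NOD.scid and between -0.19 and 0.29 for the other pairs of groups. With the replicate block, 226 probe sets (159 genes) were higher and 432 (341) lower. With the crossed block, added after the data were seen, these were 643 (440) and 1329 (1021). Pools of animals, with 2 arrays a group and no stated separation between them, limit what the p-values cover, and probe sets near the dim end of the table have no detection calls.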

Other observations

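The erythroid genes had a summed linear level of 5602 and 5431 in NOD.scid and of 2902 and 2657 in NOD, against 1983 and 2008 in BDC2.5/NOD and 2541 and 2651 in BDC2.5/NOD.scid. The ribosomal protein list summed to 28418 and 28493 in NOD, against 21953 and 22309 in BDC2.5/NOD and 26551 and 25095 in BDC2.5/NOD.scid. Prdx2 is a peroxidase abundant in red cells and a member of the erythroid list. Its brightest probe set was likewise highest in NOD.scid, at 7.80 and 7.92, but lowest in BDC2.5/NOD.scid, at 6.62 and 6.38. It read 6.86 and 6.94 in NOD and 6.89 and 6.83 in BDC2.5/NOD. Dimmer probe sets of Prdx2 did not differ between BDC2.5/NOD.scid and NOD past the threshold (0.00 and -0.01). The probe set shared by Mir675 and H19, an imprinted RNA of growing tissue, read 7.44 and 7.02 in NOD, against 5.82 and 5.43 in BDC2.5/NOD and 5.77 and 6.12 in BDC2.5/NOD.scid, and that shared by Tmem119 and Igfbp5 read 6.66 and 6.53, 5.60 and 5.62, and 5.59 and 5.64. These genes were named after their values were seen, and no cause was tested.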
